A study of Mus musculus with 240 samples.

Results

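The genes described here encode the chondroitin sulfate proteoglycans, tenascins and link protein of oligodendrocyte precursor cells (OPCs), the glial progenitors that give rise to myelin-forming cells in the adult brain. They were the rows of the deposited gene table with the symbols Cspg4, Cspg5, Ptprz1, Vcan, Bcan, Ncan, Acan, Tnr, Tnc and Hapln1, and all 10 were found among 34623 genes. The study followed OPCs of mouse brain, cut from frozen sections by laser capture microdissection, from the loss of 2 tumour suppressors to glioma, in 240 libraries. Bulk libraries came from wild-type mice at 12 days (5 animals), 90 days (5 animals) and 150 days (6 animals) after the start of tamoxifen, and from mice with the genotype Trp53-/- Nf1-/- (called CKO) at 12 days (7 animals), 90 days (7 animals) and 150 days (7 animals). The CKO material at 150 days is labelled as brain tumour cells and is called tumour below. All time points are counted in days from the start of tamoxifen (dpi), in WT and CKO mice alike. Small libraries held 10 cells each and were all from CKO mice: 56 libraries of 10 cells captured together (10-cell libraries) and 40 aliquots of a larger pool (pool-and-split libraries) at 12 dpi, and the same numbers at 90 dpi. All bulk libraries, WT and CKO alike, are titled tdTpositive, a term the labels used here do not spell out. They name no strain, Cre driver or age, and no number of cells behind a bulk library.

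OPCs surround themselves with a matrix built on hyaluronan, a long sugar chain without a protein core. Lecticans (versican, brevican, neurocan and aggrecan) are proteoglycans that grip hyaluronan at one end, a grip that link proteins such as Hapln1 stabilise, and bind tenascins at the other. Their chondroitin sulfate chains repel growing axons and hold growth factors, and the same components form the perineuronal nets around neurons. NG2 (Cspg4), neuroglycan C (Cspg5) and the receptor phosphatase Ptprz1 carry chondroitin sulfate as membrane proteins. NG2 is the classical surface marker of OPCs, while several of the others are also made by astrocytes or neurons.

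The bulk libraries held 93694 to 23199230 counts, and the 11 animals with 2 libraries had these summed. Levels are given as counts per 1000000 (CPM) after TMM scaling, and a gene was called at a Benjamini-Hochberg adjusted p under 0.05 of edgeR's quasi-likelihood F test over all 16349 genes tested, all 10 members among them. The targeted gene Nf1 stood at 312 ± 41.2 CPM (SD, n = 5) in WT and 191 ± 16.1 (n = 7) in CKO animals at 12 dpi, without overlap. At 90 dpi it stood at 299.6 ± 27.0 (n = 5) and 196 ± 49.5 (n = 7), and at 150 dpi at 301 ± 42.4 (n = 6) in WT and 214 ± 41.1 (n = 7) in tumours. Trp53 stood at 32.3 ± 8.78 CPM in WT and 31.4 ± 3.71 in CKO animals at 12 dpi and rose in tumours (log2 change 0.74 against WT, adjusted p = 0.00971), and the sources used here do not say whether its counted reads lie in the deleted part. The animal labelled CKO 20647 at 90 dpi, the sum of 2 libraries titled ACTAA and GAGCT, held 302 CPM of Nf1, within the WT range, against 150 to 205 in the other 6 CKO animals of that age. With the animal's TMM factor applied to each library, Nf1 stood at 211 CPM in ACTAA and 394 CPM in GAGCT. WT 21167 at 90 dpi held 93694 counts in all, so that 3 counts correspond to 32.0 CPM.

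The captured cells carried the OPC markers Pdgfra, Olig2 and Sox10 in each group, and RNA of other cell types with them. Summed over 9 neuron markers (Snap25, Syt1, Rbfox3 and others), WT animals at 150 dpi held 6760 to 10100 CPM, CKO animals at 90 dpi 7150 to 13200 CPM and tumours 217 to 1470 CPM. Over 8 OPC markers the ranges were 862 to 1480 CPM, 946 to 1660 CPM and 1560 to 4050 CPM in the same order. Proliferation genes (8, Mki67 among them) summed to 53.5 to 122 CPM in WT and 456 to 2150 CPM in tumours, and microglia markers (8) to 118 to 183 CPM and 257 to 926 CPM. Astrocyte markers overlapped, at 2690 to 4010 CPM in WT and 1060 to 3580 CPM in tumours, as did oligodendrocyte markers, at 1490 to 2930 CPM and 389 to 1600 CPM, and 8 pericyte and endothelial markers ran from 442 to 788 CPM in WT and from 174 to 327 CPM in tumours. Within these sums single genes were called in both directions in tumours against WT. Of the astrocyte markers, Gfap (log2 change 2.52) and Aqp4 (1.36) rose and Gja1 (-1.89) and Gjb6 (-1.31) fell. Of the oligodendrocyte markers, Cnp (0.705) rose and Mobp (-3.26) and Mog (-2.17) fell. No marker gene was at 0 throughout a group. In every bulk comparison below, fewer cells of a type and less RNA per cell cannot be told apart, and the part of these other cells in the members' changes was not tested.

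Promoter sequences are shown for 4 members that stand for the 3 patterns described below. Ncan was higher in every tumour, Acan and Tnc had large average rises that shrank without tumour 16713, and Tnr did not pass the test. Each line gives the 250 bases before the RefSeq transcription start in GRCm38.p6, 5′ to 3′ on the gene's strand. Capitals mark matches, on either strand, to the E-box CAGCTG read by basic helix-loop-helix factors, the SOX core ACAAAG, the GC box GGGCGG, the core TATAA or the AP-1 site TGANTCA. Where Ncan has TTATAA, the core and its reverse complement overlap.
Ncan: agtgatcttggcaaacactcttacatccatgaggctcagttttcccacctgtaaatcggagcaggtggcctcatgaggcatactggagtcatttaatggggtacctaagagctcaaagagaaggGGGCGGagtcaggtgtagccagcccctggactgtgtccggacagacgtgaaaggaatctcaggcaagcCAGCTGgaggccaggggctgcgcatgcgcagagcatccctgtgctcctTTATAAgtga
Acan: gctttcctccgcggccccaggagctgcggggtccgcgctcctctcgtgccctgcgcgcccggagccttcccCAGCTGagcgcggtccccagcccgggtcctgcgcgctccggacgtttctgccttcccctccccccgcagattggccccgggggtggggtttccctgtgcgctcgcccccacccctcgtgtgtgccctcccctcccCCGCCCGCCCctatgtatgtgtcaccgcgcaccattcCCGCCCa
Tnc: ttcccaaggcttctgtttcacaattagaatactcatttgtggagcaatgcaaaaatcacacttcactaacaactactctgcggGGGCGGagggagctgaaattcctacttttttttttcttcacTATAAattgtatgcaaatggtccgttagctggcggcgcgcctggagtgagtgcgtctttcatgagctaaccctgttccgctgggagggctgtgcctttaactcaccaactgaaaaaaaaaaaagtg
Tnr: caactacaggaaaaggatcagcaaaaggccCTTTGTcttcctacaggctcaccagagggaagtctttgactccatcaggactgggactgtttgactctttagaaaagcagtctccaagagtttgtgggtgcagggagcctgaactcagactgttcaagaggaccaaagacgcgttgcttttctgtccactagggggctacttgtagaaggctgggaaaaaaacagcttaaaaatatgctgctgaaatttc
The windows lie at chr8:70120845-70121094 (Ncan, minus strand), chr7:79052976-79053225 (Acan, plus strand), chr4:64047016-64047265 (Tnc, minus strand, the first of 2 listed starts) and chr1:159523519-159523768 (Tnr, plus strand). GC content was 54.4% for Ncan, 74.4% for Acan, 44.8% for Tnc and 46.8% for Tnr. Promoters of 9 members were listed. The E-box lay in those of Acan and Ncan (2 of 9) and in 13.0% of all 32851 promoter windows, the SOX core in that of Tnr (1 of 9) and in 16.5%, the GC box in 7 of 9 and in 32.7%, the TATA core in those of Ncan and Tnc (2 of 9) and in 22.8%, and the AP-1 site in none of the 9 and in 6.75%. Such matches are letters in a window and are not evidence that a factor binds there.

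In the bulk libraries of WT OPCs the 10 genes formed a steep and steady order. These libraries also held RNA of neurons and astrocytes, whose part in the order was not tested. The small libraries of CKO mice, described below, gave a different balance. Per kilobase of the longest protein-coding transcript (CPM per kb), the median at 12 dpi was 116 for Ptprz1, 84.5 for Tnr, 60.1 for Ncan, 35.3 for Vcan, 34.3 for Bcan, 26.9 for Cspg5, 10.3 for Cspg4, 4.16 for Hapln1, 1.88 for Tnc and 1.31 for Acan. At 90 dpi the same 10 genes stood in the same order, from 125 CPM per kb for Ptprz1 to 1.27 for Acan, and at 150 dpi Cspg5 (34.0) stood above Bcan (24.9). Neighbours in this order did not always separate: at 12 dpi Vcan (28.2 to 40.8 CPM per kb over 5 animals), Bcan (23.6 to 37.7) and Cspg5 (22.5 to 33.7) overlapped, as did Tnc (1.09 to 2.59) and Acan (0.91 to 1.72). Cspg4 (7.01 to 15.6) overlapped with neither Cspg5 above it nor Hapln1 (2.90 to 5.22) below it. In CKO animals Ptprz1 led at both ages with 135 CPM per kb, and Ncan (79.0) stood above Tnr (65.8) at 12 dpi and below it at 90 dpi (63.2 and 88.8).

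No member passed the test in the premalignant stages. Between CKO and WT at 12 dpi, 0 of 10 were called against 0.0183% of all genes, with edgeR and with DESeq2, and 1 member (Ncan) had an unadjusted p under 0.05. At 90 dpi 0 of 10 were called against 0.0489% of all genes, also with DESeq2, and none had an unadjusted p under 0.05. The median log2 difference of the members was 0.10 at 12 dpi and 0.27 at 90 dpi, beside 0.03 and 0.04 over all genes tested. Over time, 0 of 10 were called in CKO animals between 12 and 90 dpi (0% of all genes), in WT animals between 12 and 90 dpi (0.00612%) and between 90 and 150 dpi (0.0183%), and in the change of the genotype difference from 12 to 90 dpi (0%). DESeq2 also called 0 of 10 in each, and at an unadjusted p under 0.05 stood Ncan alone, in CKO animals between 12 and 90 dpi. All these tests used a spread estimated over all bulk animals, tumours included. A fit of the compared groups alone called Hapln1 in WT animals between 12 and 90 dpi.

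Ncan, the lectican of the immature brain, came nearest to a difference between the genotypes before tumours formed. The 5 WT animals at 12 dpi held 381, 406, 432, 446 and 514 CPM, and the 7 CKO animals 469, 568.4 and 676 CPM (lowest, median and highest). At 90 dpi the WT animals held 322, 370 (369.7 in WT 21167), 377, 383 and 393 CPM and the CKO animals 417, 454 and 517 CPM. The groups overlapped at 12 dpi and did not at 90 dpi, where every CKO animal lay above every WT animal. The share of all genes without overlap was not computed for this comparison, so this separation cannot be weighed and is given as a description. The value of WT 21167 rests on 39 counts. The log2 difference was 0.40 ± 0.17 (SE) at 12 dpi, with an unadjusted p of 0.021 and an adjusted p of 0.997, and 0.31 ± 0.17 at 90 dpi (unadjusted p = 0.0757, adjusted p = 0.985). The difference at 90 dpi was 0.28 ± 0.17 (unadjusted p = 0.121) without CKO 20647, the highest CKO animal. With the deepest library of each animal it was 0.23 ± 0.17 (unadjusted p = 0.195). Between 12 and 90 dpi the log2 change in CKO animals was -0.33 ± 0.15 (unadjusted p = 0.0331, adjusted p = 1.0).

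For the other members the intervals at these stages were widest for Acan, Tnc and Hapln1, the scarcest genes, and did not follow abundance among the rest. Ptprz1 differed between CKO and WT by 0.19 ± 0.18 on the log2 scale at 12 dpi, with a 95% interval from -0.17 to 0.55, and by 0.12 ± 0.18 at 90 dpi (-0.24 to 0.48). Cspg4 differed by 0.41 ± 0.28 (-0.15 to 0.96) and 0.43 ± 0.29 (-0.13 to 0.99), its 7 CKO animals holding 91.7 to 154 CPM at 12 dpi and 101 to 189 CPM at 90 dpi against 56.9 to 127 CPM and 75.8 to 116 CPM in WT. Tnc differed by 1.18 ± 0.77 at 90 dpi (-0.32 to 2.68), where CKO 20647 held 105 CPM, the other 6 CKO animals 5.38 to 11.3 CPM and the WT animals 7.97, 9.37, 11.1, 11.5 and 0 CPM, the last being WT 21167 with no count. CKO 20647 was also the highest CKO animal at 90 dpi for Hapln1 (61.3 CPM against 11.8 to 27.4 CPM), for the summed astrocyte markers (6950 CPM against 2340 to 3320 CPM) and for the summed neuron markers (13200 CPM against 7150 to 8910 CPM). Its 2 libraries differed: all 1712 Tnc counts lay in ACTAA (207 CPM) and none in GAGCT, while GAGCT held more Hapln1 (110 against 13.3 CPM), astrocyte markers (10500 against 3490 CPM) and neuron markers (17900 against 8650 CPM). Without CKO 20647 the Tnc difference turned to -0.34 ± 0.58, and without WT 21167 as well to -0.39 ± 0.60, neither called.

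**Figure D1:**
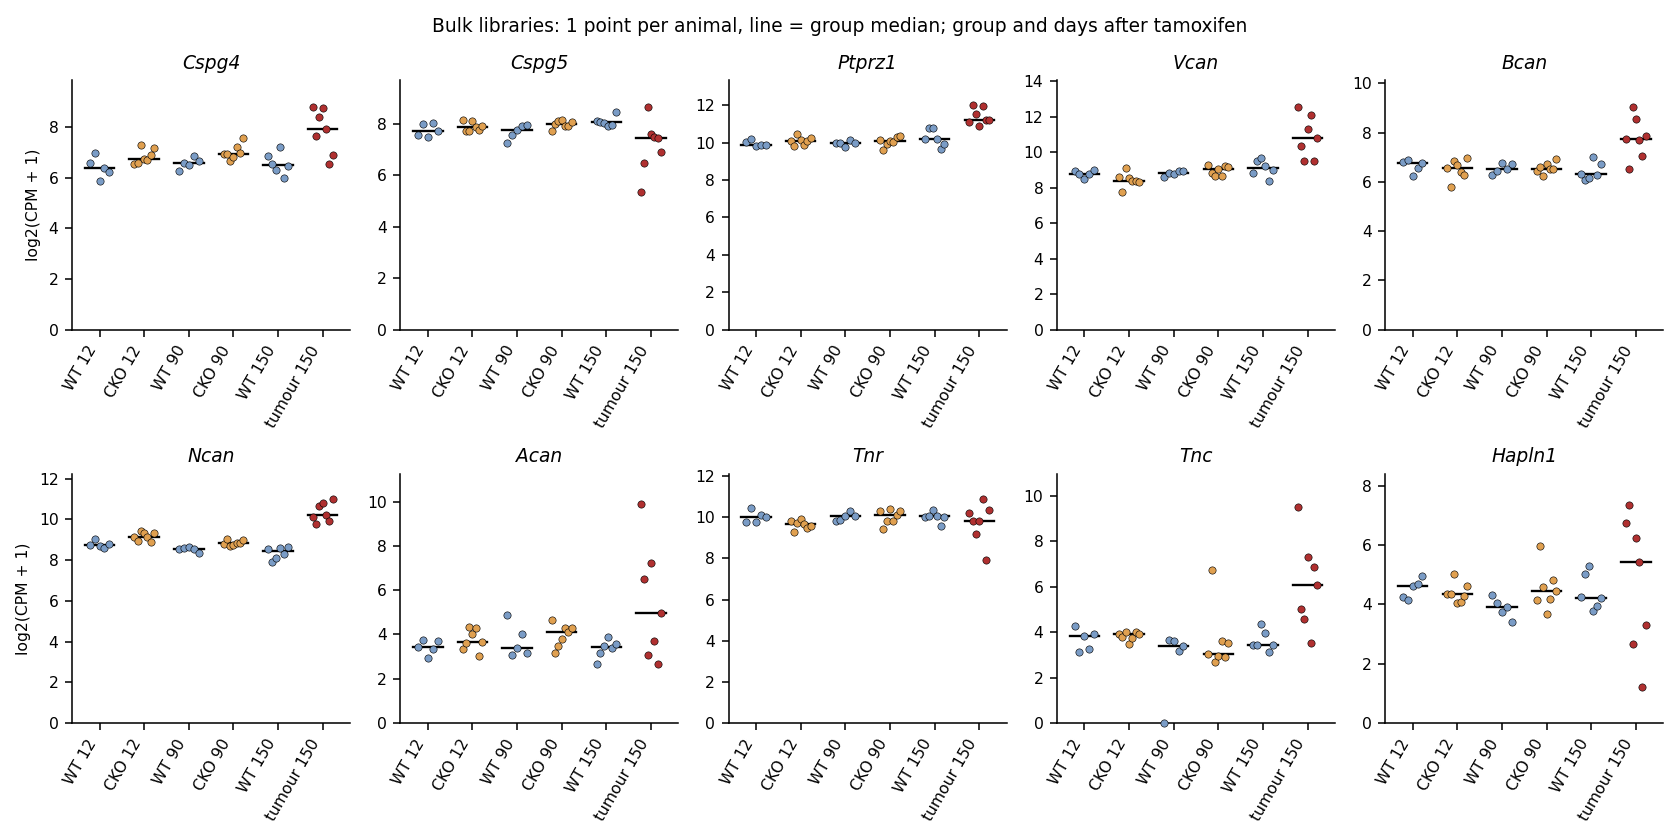
Level of each of the 10 genes in every bulk animal, as log2(CPM + 1), by genotype and days after the start of tamoxifen (WT blue, CKO orange, tumour red), with a line at each group's median. WT and CKO groups run close together at 12 and 90 dpi, the tumours lie above all WT animals of 150 dpi for Ptprz1 and Ncan, and they spread widely for Acan, Tnc and Hapln1.

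In tumours the set moved upwards, with a single called fall. Against WT at 150 dpi, 9 of the 10 genes were called: Cspg4, Ptprz1, Vcan, Bcan, Ncan, Acan, Tnc and Hapln1 rose, Cspg5 fell and Tnr did not pass the test. The background was high in this comparison, with 24.3% of all genes called higher and 21.9% called lower. The median log2 change of the members was 1.47, beside 0.06 over all genes tested. Groups did not overlap for 2 of 10 members (Ptprz1 and Ncan), against 15.7% of all genes. Summed over the 10 genes, tumours held 4798 to 12840 CPM (median 8075) and WT animals at 150 dpi 2650 to 4608 CPM (median 3639).

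Against premalignant CKO animals at 90 dpi, a comparison that uses the same 7 tumours and in which age and malignancy cannot be told apart, 7 of 10 genes rose (26.4% of all genes called higher, 22.6% lower) and none fell. Cspg5, Tnr and Hapln1 did not pass. The median log2 change was 1.40, beside 0.12 over all genes. Here 3 members, Ptprz1, Vcan and Ncan, did not overlap between groups, against 17.2% of all genes. Leaving out WT 21167 and CKO 20647 together, an alternative chosen after seeing the data, gave 9 and 8 called members in the comparisons with WT and CKO, Hapln1 being added in the latter.

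The difference between mutant and WT animals grew from 90 to 150 dpi for 6 members, Cspg4, Ptprz1, Vcan, Bcan, Ncan and Acan, by a test of the change itself (14.2% of all genes called higher, 15.8% lower). Of all genes called, 47.2% were higher, and 57.3% with RLE scaling. RLE scaling also moved the median of all genes tested from 0.06 to 0.22 in the comparison with WT, and the members with it. Ncan gained 1.73 ± 0.23 on the log2 scale (adjusted p = 2.6e-07), Vcan 1.97 ± 0.47 (adjusted p = 0.00121), Bcan 1.52 ± 0.36 (adjusted p = 0.00132) and Ptprz1 1.05 ± 0.25 (adjusted p = 0.00133). The value for Cspg4, 1.02 ± 0.39, passed narrowly (adjusted p = 0.0434) and did not pass with WT 21167 and CKO 20647 left out (adjusted p = 0.0558), without the filter on low counts (0.0525), when only the groups compared were fitted (0.0707), nor without any one of CKO 20642, 20647, 22146 and 22149, tumours 16713, 16840 and 16844 and WT 21591, 21592, 22062, 22064, 22254 and 22255 (adjusted p from 0.0538 to 0.0875). Tnc (2.60 ± 1.05, adjusted p = 0.0571) did not pass, but passed with DESeq2 (2.77, adjusted p = 0.0225) and without those 2 animals (3.91, adjusted p = 3.3e-04), while it was 1.54 (adjusted p = 0.163) without tumour 16713. Cspg5, at -0.94 ± 0.37 (adjusted p = 0.0529), passed without tumour 16840 (-1.24, adjusted p = 0.00213) or 16713 (-0.77, adjusted p = 0.0406). Acan (3.50 ± 1.02, adjusted p = 0.00815) did not pass without tumour 16713 (1.55, adjusted p = 0.106).

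**Figure D2:**
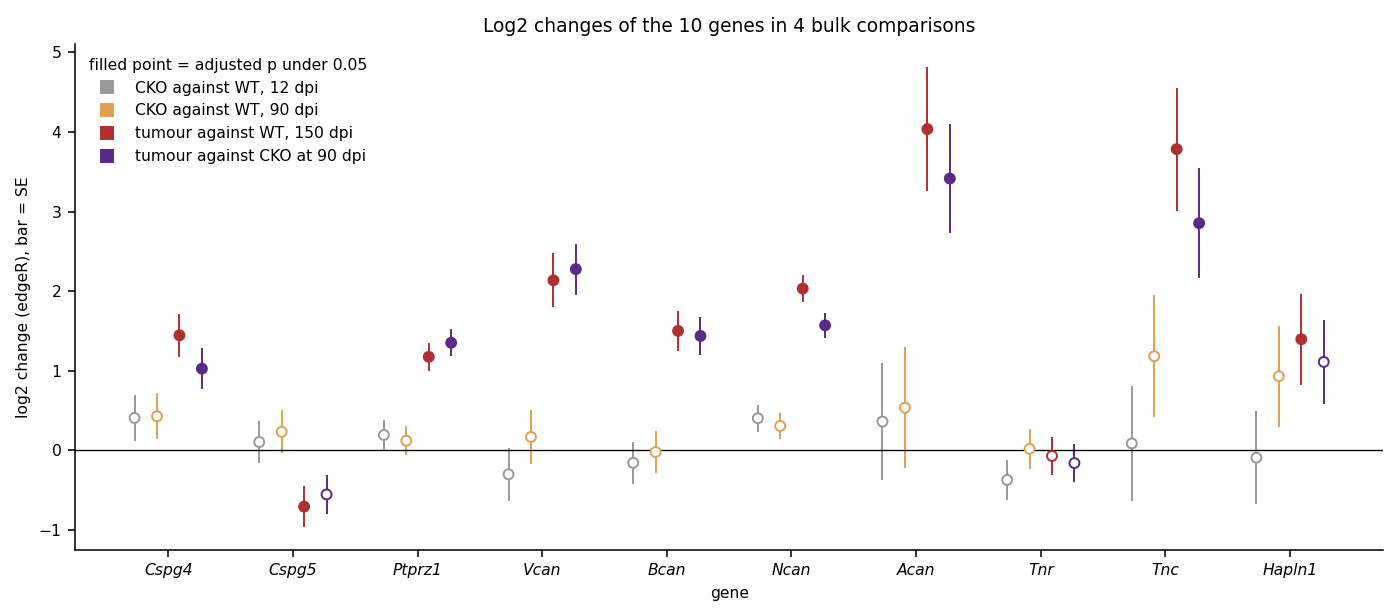
Log2 changes of the 10 genes in 4 bulk comparisons with their standard errors, a filled point marking an adjusted p under 0.05. All points of the CKO against WT comparisons at 12 and 90 dpi are open, while 9 of 10 are filled for tumour against WT and 7 of 10 for tumour against CKO at 90 dpi.

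Among the membrane proteoglycans, Ptprz1, the receptor phosphatase that binds pleiotrophin and contactin, separated tumours from all other animals. The 6 WT animals at 150 dpi held 819, 1156 and 1770 CPM (lowest, median and highest), the 7 CKO animals at 90 dpi 768, 1090 and 1311 CPM, and the 7 tumours 1920, 2383 and 4088 CPM. The lowest tumour thus lay above the highest WT and CKO animal. It rose by 1.18 ± 0.18 on the log2 scale against WT (adjusted p = 1.0e-06) and by 1.35 ± 0.17 against CKO (adjusted p = 2.7e-08).

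Cspg4, which encodes NG2, rose in most tumours but not in all. WT animals at 150 dpi held 62.1, 89.9 and 149.6 CPM, CKO animals at 90 dpi 101, 124 and 189 CPM, and tumours 91.8, 241 and 449 CPM (lowest, median and highest). Tumours 21349 (91.8 CPM) and 21354 (118 CPM) lay within the WT range and the other 5 above it. The log2 change was 1.45 ± 0.27 against WT (adjusted p = 3.9e-05) and 1.03 ± 0.25 against CKO (adjusted p = 0.001).

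Cspg5, neuroglycan C, which carries an EGF-like domain and is made by neurons as well as OPCs, went the other way. WT animals held 241, 268 and 358 CPM, CKO animals at 90 dpi 208, 254 and 281 CPM, and tumours 40.3, 173 and 403 CPM. Tumours 16713 (40.3), 16839 (89.6), 21354 (119.8), 21349 (173), 21256 (179) and 16844 (197) lay below every WT animal, and tumour 16840 (403) above them all. The log2 change against WT was -0.71 ± 0.25 (adjusted p = 0.0217). The call was lost with DESeq2 (-0.56, adjusted p = 0.0514), with RLE scaling (adjusted p = 0.0592), when only tumours and WT animals at 150 dpi were fitted (-0.70, adjusted p = 0.164) and without tumour 16839, tumour 21354 or WT 22064 (adjusted p from 0.0576 to 0.0816). Against CKO the log2 change was -0.55 ± 0.24 (adjusted p = 0.0586), -0.92 (adjusted p = 5.0e-04) without tumour 16840 and -0.37 (adjusted p = 0.116) without tumour 16713.

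Ncan was the most uniform riser of the lecticans. WT animals at 150 dpi held 240.0, 344 and 403 CPM, CKO animals at 90 dpi 417, 454 and 517 CPM, and tumours 864, 1185 and 2009 CPM (lowest, median and highest). Each tumour held at least 2.60 times the WT mean of 332 ± 67.0 CPM (SD, n = 6), and none overlapped with WT or CKO animals. The log2 change was 2.03 ± 0.17 against WT (adjusted p = 1.3e-12) and 1.57 ± 0.15 against CKO (adjusted p = 1.3e-10), and it ranged from 1.95 to 2.15 against WT when each animal was left out in turn.

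Vcan, which encodes versican, the largest lectican, rose unevenly. WT animals held 333, 551 and 802 CPM, CKO animals at 90 dpi 396, 527 and 622 CPM, and tumours 717, 1787 and 5915 CPM. Tumours 16840 (717) and 21349 (732) lay within the WT range, and tumours 16713 (5915) and 21256 (4419) far above it. The log2 change was 2.14 ± 0.34 against WT (adjusted p = 2.3e-06) and 2.28 ± 0.32 against CKO (adjusted p = 2.4e-07).

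Bcan, brevican, a lectican of the adult brain, held 66.5, 78.1 and 129 CPM in WT animals, 74.5, 90.4 and 120.0 CPM in CKO animals at 90 dpi, and 90.1, 211 and 528 CPM in tumours. Tumour 16839 (90.1 CPM) alone lay within the WT range. Its log2 change was 1.50 ± 0.26 against WT (adjusted p = 8.1e-06) and 1.44 ± 0.24 against CKO (adjusted p = 5.6e-06).

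Acan, aggrecan, the lectican of perineuronal nets and cartilage, was the scarcest member in WT OPCs and reached the widest range in tumours. The 6 WT animals held 5.35, 9.78 and 13.8 CPM and the 7 CKO animals at 90 dpi 8.01, 16.1 and 24.0 CPM. The tumours held 5.34 (21349), 7.43 (16840), 11.8 (21256), 30.4 (21354), 90.0 (16839), 147 (16844) and 937 CPM (16713). Tumour 16713 thus stood at 97.9 times the WT mean, 3 others lay above the WT range, 2 within it and 1 below. The log2 change of 4.04 ± 0.78 against WT (adjusted p = 5.7e-05) became 2.17 (adjusted p = 7.3e-04) without tumour 16713, and that of 3.42 ± 0.69 against CKO (adjusted p = 8.8e-05) became 1.39 (adjusted p = 0.019).

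Hapln1, the link protein that clamps lecticans to hyaluronan, divided the tumours. WT animals at 150 dpi held 12.9, 17.7 and 38.0 CPM. Tumours 16839 (161), 16713 (106), 16844 (74.8) and 21256 (42.2) lay above every WT animal, and tumours 21354 (8.89), 16840 (5.38) and 21349 (1.34) below every one. The log2 change was 1.40 ± 0.57 against WT (adjusted p = 0.0426) and was lost when only the 2 groups compared were fitted (1.48, adjusted p = 0.166), with the deepest library of each animal (1.34, adjusted p = 0.0569) and without any one of 7 animals, 3 tumours (16713, 16839 and 16844) and 4 WT animals (21590, 21593, 22062 and 22064), the lowest value being 0.92 (adjusted p = 0.176) without tumour 16839. Against CKO the change was 1.11 ± 0.53 (adjusted p = 0.0799), 1.32 (adjusted p = 0.0312) with DESeq2, 1.49 (adjusted p = 0.0267) without CKO 20647 and 0.63 (adjusted p = 0.327) without tumour 16839.

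Both tenascins were followed, and they parted. Tnr, tenascin-R, the partner of the lecticans in the adult brain, held 769.7, 1048 and 1282 CPM in WT animals, 683, 1083 and 1327 CPM in CKO animals at 90 dpi and 242, 899.8 and 1864 CPM in tumours. Tumours 21256 (1864) and 21354 (1319) lay above the WT range, 16840 (571) and 21349 (242) below it, and 3 within it. The log2 change against WT was -0.07 ± 0.24 (adjusted p = 0.846), with a 95% interval from -0.54 to 0.40, and against CKO -0.16 ± 0.23 (adjusted p = 0.602). Its sign turned with RLE scaling and with DESeq2, under which it was 0.10 against WT and 0.03 against CKO, still without a call.

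Tnc, tenascin-C, a matrix protein of development, wounds and glioma, was scarce in WT OPCs and rose in tumours. WT animals at 150 dpi held 7.68, 9.80 and 19.3 CPM and CKO animals at 90 dpi 5.38, 7.28 and 105 CPM. The tumours held 10.3 (21256), 22.5 (16840), 31.5 (16839), 66.4 (21354), 115 (21349), 156 (16844) and 718 CPM (16713), so that 6 of 7 lay above every WT animal. Tumour 16840 did so through 1 of its 2 libraries, which held 33.4 CPM, the other holding 6.73 CPM, below every WT animal. The log2 change of 3.78 ± 0.77 against WT (adjusted p = 1.1e-04) became 2.57 (adjusted p = 5.0e-04) without tumour 16713. Against CKO it was 2.85 ± 0.69 (adjusted p = 7.5e-04), 1.66 (adjusted p = 0.00949) without tumour 16713 and 4.27 (adjusted p = 1.9e-07) without CKO 20647.

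**Figure D3:**
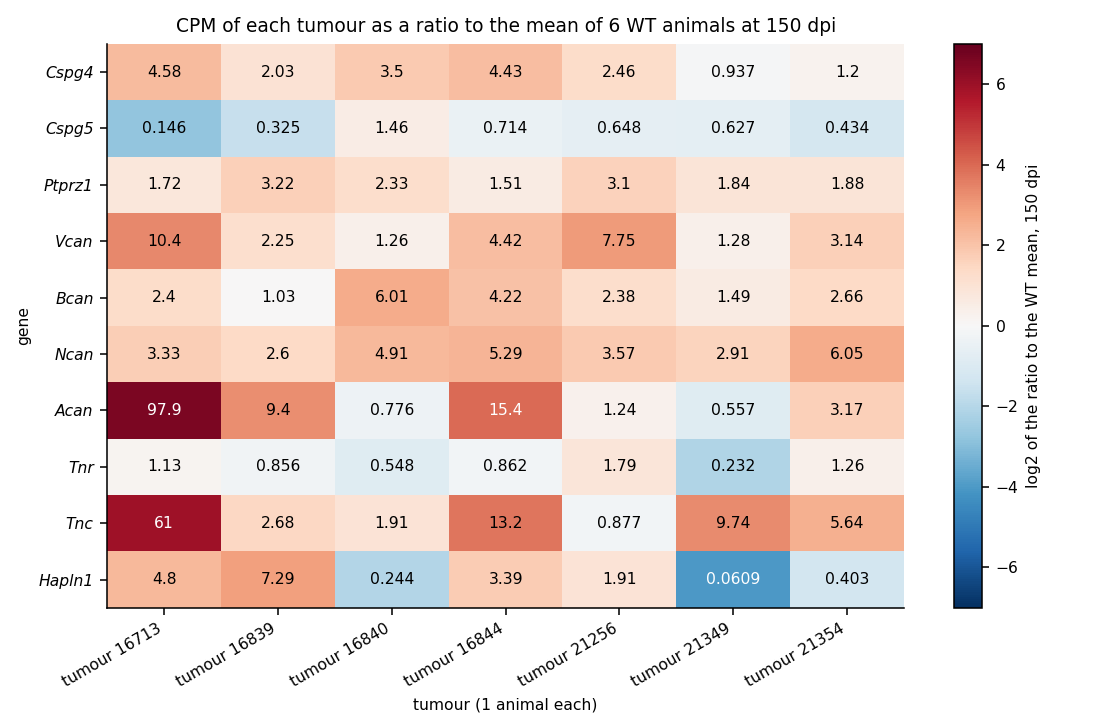
CPM of each gene in each of the 7 tumours as a ratio to the mean of the 6 WT animals at 150 dpi, printed in the cell and coloured on a log2 scale (red above, blue below the WT mean). Ncan and Ptprz1 lie above 1 in every tumour, Acan runs from 0.557 to 97.9, and Hapln1 from 0.0609 to 7.29.

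Read by tumour, the 10 genes made different mixtures. Tumour 16713 held 8 members above the WT range, with the highest Cspg4, Vcan, Acan and Tnc of the 7, and the lowest Cspg5. Tumour 16844 also held 8 above and 1 below it. Tumour 16840 had the highest Bcan (528 CPM) and Cspg5 (403 CPM) and the lowest Vcan (717 CPM), with Acan (7.43 CPM) within the WT range. Tumour 21349 held 4 members above the WT range and 4 below it, with the lowest Cspg4, Acan, Tnr and Hapln1 of the 7 and the highest summed proliferation markers (2150 CPM). Tumour 21256 combined the highest Tnr (1864 CPM) with the lowest Tnc (10.3 CPM) and had the highest summed neuron markers (1470 CPM) and OPC markers (4050 CPM) of the tumours. The 2 libraries of an animal differed by a median of 1.14 times over 110 gene and animal pairs, and by under 2 times in 102 of them. In 2 pairs, Tnc and Acan of CKO 20647, 1 library had no count and the other 207 and 15.9 CPM, and the widest gap among the other 108 was 8.28 times, for Hapln1 of the same animal. Apart from Tnc, the 2 libraries of a tumour fell on different sides of an end of the WT range for Hapln1 in tumour 21256 (35.6 and 46.9 CPM) and for Bcan (123 and 139.5 CPM) and Acan (4.74 and 5.89 CPM) in tumour 21349.

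Across the 37 animals, after subtraction of each group's mean, some members moved alike. These correlations of log2 CPM come from genes measured in the same libraries and are given as descriptions. Tumours spread more widely than the other groups for some members, and correlations without the tumours were not computed. For Acan the SD was 194% of the mean CPM in tumours and 29.9% in WT animals at 150 dpi. Bcan and Ncan moved most alike (Pearson r = 0.76), followed by Vcan and Tnr (r = 0.75) and Acan and Hapln1 (r = 0.65). Cspg5 ran against Acan (r = -0.71) and Hapln1 (r = -0.50). Among genes above the median level, the 2 most like each member were Caskin2 (r = 0.77) and 3632451O06Rik (r = 0.75) for Cspg4, Nxph1 and Kcnc1 (both r = 0.81) for Cspg5, Senp6 (r = 0.82) and Pcdh15 (r = 0.80) for Ptprz1, and Edil3 (r = 0.83) and Inhba (r = 0.82) for Vcan. For Bcan they were Cd81 (r = 0.84) and A730017C20Rik (r = 0.80), for Ncan Atp1b2 (r = 0.78) and Cd81 (r = 0.76), and for Acan Papss2 (r = 0.84), an enzyme that makes the sulfate donor for chondroitin sulfate, and Ildr2 (r = 0.82). Tnr was most like the sialidase gene Neu4 (r = 0.86) and Jam2 (r = 0.79), Tnc like the integrin subunit gene Itgb1 (r = 0.85) and Tbl2 (r = 0.83), and Hapln1 like Pcsk2 and Sorbs2 (r = 0.82 and 0.81).

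Each lectican gene lies next to a gene for a link protein, with no other annotated gene between them. On GRCm38, Vcan (chr13:89655312-89742509) and Hapln1 (chr13:89539796-89611652) are 43.7 kb apart on opposite strands, and both were called higher against WT. The call of Hapln1 (adjusted p = 0.0426) was lost in several alternatives, and against CKO it was not called (adjusted p = 0.0799). In tumours 21354, 16840 and 21349 Hapln1 lay below every WT animal, while Vcan lay within or above the WT range. Bcan (chr3:87987531-88000230) lies 21.5 kb from Hapln2, which fell by 2.00 ± 0.47 on the log2 scale against WT (adjusted p = 5.9e-04) and by 2.01 ± 0.43 against CKO (adjusted p = 2.1e-04). Ncan (chr8:70093085-70120873) lies 2.2 kb from Hapln4, whose change was -0.48 ± 0.42 against WT (adjusted p = 0.366) and -1.26 ± 0.39 against CKO (adjusted p = 0.0074), the latter losing its call without WT 21167 and CKO 20647 (-0.84, adjusted p = 0.0528) and without CKO 20647 alone (-0.82, adjusted p = 0.0667). Acan (chr7:79053483-79115099) ends 2 bases from Hapln3, whose change was 0.03 ± 0.48 against WT (adjusted p = 0.975). The sources used here do not say whether reads were counted by strand, so that reads of Acan and Hapln3, which end against each other, may be shared. Hapln2 is a gene of mature oligodendrocytes, whose summed markers were 389 to 1600 CPM in tumours, and their part in its fall was not tested. Hapln2 fell by 3.10 against WT and by 3.33 against CKO with the deepest library of each animal alone, and by 2.63 and 2.71 without tumour 16713.

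Of 8 genes for hyaluronan synthases, receptors and further link proteins, 3 rose and 1 fell against WT (median log2 change 1.08), and 3 rose and 2 fell against CKO (median 0.10). Among all genes, 24.3% rose and 21.9% fell against WT, and 26.4% rose and 22.6% fell against CKO. Cd44, the hyaluronan receptor, stood at 70.9 ± 65.5 CPM (SD, n = 7) in tumours, 2.36 ± 4.41 (n = 6) in WT and 2.20 ± 3.50 (n = 7) in CKO animals, rising by 5.47 ± 0.96 (adjusted p = 1.4e-05) and 4.84 ± 0.79 (adjusted p = 4.0e-06) on the log2 scale. The first became 4.88 without tumour 16713 and 7.09 without WT 21592, and the second 6.11 without CKO 20647, all still called. Hmmr, a hyaluronan-binding protein of the mitotic spindle, rose by 3.52 ± 0.37 against WT (adjusted p = 6.5e-10) and by 3.25 ± 0.33 against CKO (adjusted p = 2.9e-10). The third riser was the synthase gene Has2, named here after its values were seen, at 2.70 ± 0.39 (adjusted p = 5.7e-07) against WT and 3.17 ± 0.37 (adjusted p = 5.0e-09) against CKO.

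Enzymes that build chondroitin sulfate chains were called in both directions, in shares near those of all genes. Of 21 genes, 20 were tested, of which 4 rose and 3 fell against WT (median log2 change 0.04; 24.3% and 21.9% of all genes) and 6 rose and 4 fell against CKO (median 0.36; 26.4% and 22.6%). Xylt1, which starts the chain on the core protein, rose from 172 ± 48.8 CPM (n = 6) in WT to 592 ± 299.9 (n = 7) in tumours, by 1.82 ± 0.25 (adjusted p = 1.3e-07), and by 1.70 ± 0.23 against CKO (adjusted p = 1.5e-07). Chst3, a 6-O-sulfotransferase, rose by 1.45 ± 0.23 against WT (adjusted p = 2.5e-06). Chsy3, a chain-extending synthase, fell by 3.19 ± 0.28 on the log2 scale against WT (adjusted p = 8.2e-12) and by 2.85 ± 0.27 against CKO (adjusted p = 3.3e-11), from 24.5 ± 6.48 CPM in WT to 2.82 ± 2.21 CPM in tumours. Csgalnact1, which adds the first chondroitin residue, fell by 1.18 ± 0.21 against WT (adjusted p = 1.6e-05), while against CKO the epimerase gene Dsel rose by 1.07 ± 0.34 (adjusted p = 0.00939) and B3gat3, a linker enzyme, fell by 1.28 ± 0.23 (adjusted p = 2.0e-05).

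Proteases and glycosidases that cut lecticans or their sugars were also called in both directions. Of 15 tested genes, 6 rose and 3 fell against WT (median 0.53), and 5 rose and 3 fell against CKO (median 0.60), beside 24.3% higher and 21.9% lower of all genes against WT and 26.4% and 22.6% against CKO. The lectican-cleaving proteases Adamts9 and Adamts1 rose by 2.06 ± 0.39 (adjusted p = 4.3e-05) and 1.90 ± 0.28 (adjusted p = 8.2e-07) against WT. Adamts5, an aggrecanase, fell by 2.60 ± 0.24 on the log2 scale against WT (adjusted p = 2.4e-11), from 122 ± 70.2 CPM to 19.9 ± 5.03 CPM without overlap, and by 1.28 ± 0.22 against CKO (adjusted p = 1.0e-05). Tmem2, a cell surface hyaluronidase, fell by 1.36 ± 0.25 against WT (adjusted p = 2.5e-05). Against CKO, Adamts9 rose by 2.29 ± 0.36 (adjusted p = 1.7e-06), Gusb, a lysosomal glucuronidase, rose by 1.68 ± 0.23 (adjusted p = 1.8e-07), and Cemip, which takes part in hyaluronan breakdown, fell by 1.11 ± 0.42 (adjusted p = 0.0272), a call lost with RLE scaling, with DESeq2 and when only the 2 groups compared were fitted (adjusted p from 0.0529 to 0.0981).

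Of 20 ligands and receptors of the members, 9 rose and 4 fell against WT (median 0.40), and 9 rose and 5 fell against CKO (median 0.27). Over all genes 24.3% rose and 21.9% fell against WT, and 26.4% and 22.6% against CKO, so that the falls were near the background. Egfr, a growth factor receptor that tenascin-C can engage, stood at 104 ± 107 CPM in tumours, 19.2 ± 6.79 in WT and 24.4 ± 19.2 in CKO animals, and rose by 2.42 ± 0.48 (adjusted p = 6.9e-05) and 2.04 ± 0.44 (adjusted p = 2.0e-04). Lgals3, a sugar-binding galectin, had no count in the 6 WT animals at 150 dpi, stood at 0.315 ± 0.449 CPM in CKO animals at 90 dpi and at 8.46 ± 6.55 CPM in tumours. Nrcam, a neural adhesion molecule that binds Ptprz1 and neurocan, fell by 1.95 ± 0.17 against WT (adjusted p = 9.8e-12) and by 1.94 ± 0.17 against CKO (adjusted p = 5.8e-12), without overlap. Rtn4r, the Nogo receptor, which binds chondroitin sulfate, fell by 1.87 ± 0.60 against WT (adjusted p = 0.0104) and by 3.39 ± 0.59 against CKO (adjusted p = 1.0e-05), or by 2.11 without CKO 20647 (adjusted p = 3.2e-04). Rtn4r was scarce, at 0.983 ± 0.911 CPM (SD, n = 7) in tumours, 3.35 ± 1.47 (n = 6) in WT and 10.4 ± 16.2 (n = 7) in CKO animals. Library GAGCT of CKO 20647 held 89.2 CPM of Rtn4r. Its call against WT was lost when only the 2 groups compared were fitted (adjusted p = 0.0646). Nrcam and Rtn4r are neuronal genes, and the summed neuron markers were lower in the same samples. Their part in these falls was not tested.

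The small libraries, all from CKO mice, gave a different balance of the 10 genes. Their counts were summed over 14 libraries (10-cell) or 10 libraries (pool-and-split) of 1 sex and 1 label number, giving 4 sets of each kind at each age. Bcan held 366 to 665 CPM in the 10-cell sets at 12 dpi, 391 to 566 CPM at 90 dpi and 328 to 1055 CPM in the pool-and-split sets, against 55.2 to 123 CPM in the bulk CKO animals of both ages. Ptprz1 held 22.3 to 274 CPM over all 16 sets, against 768 to 1429 CPM in bulk CKO animals, and Tnr 13.8 to 202 CPM against 610 to 1327 CPM. Vcan ran from 1.46 to 57.7 CPM, against 215 to 622 CPM in bulk. Cspg4 (48.5 to 369 CPM) and Cspg5 (64.2 to 547 CPM) overlapped with their bulk levels of 91.7 to 189 CPM and 208 to 288 CPM. Per the labels, the bulk libraries started from total RNA of 10 µm sections, amplified linearly by T7 transcription and sheared, while the small libraries were PCR-amplified from polyA RNA of 8 µm sections and tagmented. Library kind, section and number of cells change together here and cannot be told apart.

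**Figure D4:**
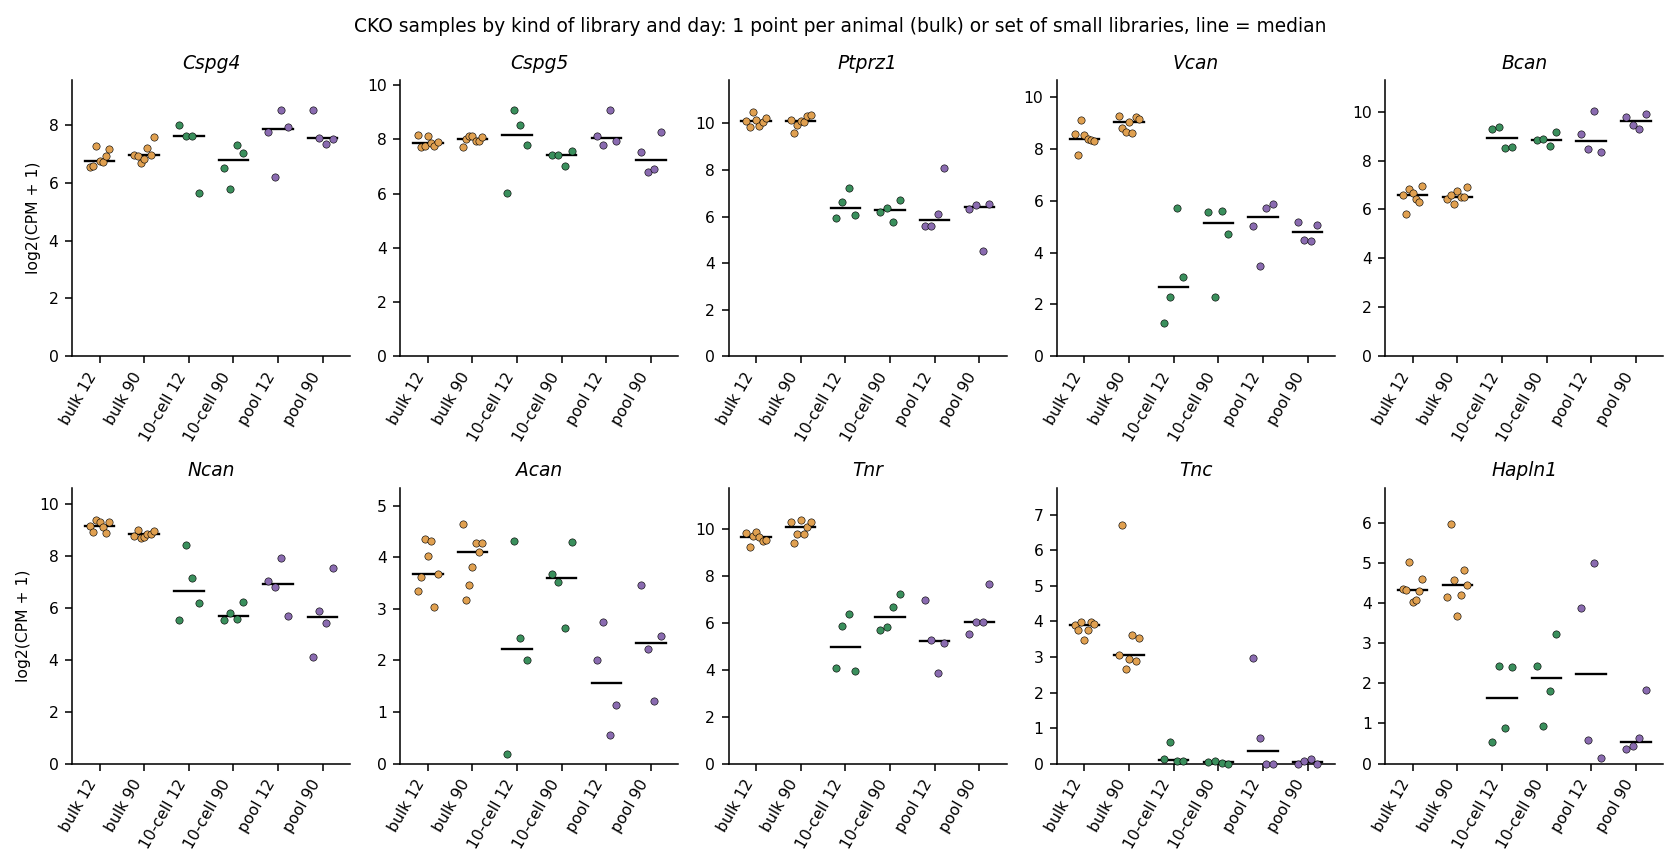
Level of each gene in CKO samples as log2(CPM + 1), in bulk animals (orange), sets of 10-cell libraries (green) and sets of pool-and-split libraries (purple) at 12 and 90 dpi, with a line at each median. Bcan lies higher in the small libraries than in bulk, Ptprz1, Vcan, Ncan and Tnr lie lower, and Cspg4 and Cspg5 overlap.

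Detection in single small libraries followed these levels. Cspg4 had a count in all 56 and all 40 libraries of each kind and age, and Bcan in 55 of 56 10-cell libraries at 12 dpi and in all other small libraries. Vcan had a count in 22 of 56 10-cell libraries (39.3%) at 12 dpi and 39 of 56 (69.6%) at 90 dpi, and in 27 of 40 (67.5%) and 25 of 40 (62.5%) pool-and-split libraries. Acan was detected in 13 of 56 (23.2%) and 32 of 56 (57.1%) 10-cell libraries and in 14 of 40 (35.0%) and 12 of 40 (30.0%) pool-and-split libraries. Hapln1 was found in 14 of 56 and 23 of 56 10-cell libraries. Tnc was scarce, with a count in 4 of 56 and 3 of 56 10-cell libraries and in 6 of 40 and 2 of 40 pool-and-split libraries, and a highest set level of 6.77 CPM. PCR copies are not independent molecules, so these shares describe the libraries.

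Between 12 and 90 dpi no member was called in the sets. In the 10-cell sets 9 members were tested (Tnc was too scarce) and 0 called, against 0% of all 14500 genes, with edgeR and with DESeq2, and none had an unadjusted p under 0.05. In the pool-and-split sets 0 of 9 were called, against 0% of 13408 genes, again with DESeq2 too, and Cspg5 alone had an unadjusted p under 0.05. Intervals were wide, that of Vcan in the 10-cell sets running from -0.95 to 3.60 around 1.32 and that of Hapln1 in the pool-and-split sets from -7.11 to -0.27 around -3.69 (unadjusted p = 0.0602). These 95% intervals are normal ones and too narrow for 8 sets of a kind. That of Hapln1 thus leaves out 0 although its unadjusted p is above 0.05. Ncan's log2 change was -1.35 ± 0.63 in the 10-cell sets (adjusted p = 0.7), with a median set level of 107 CPM at 12 dpi and 50.4 CPM at 90 dpi and 1 of the 56 libraries at 12 dpi holding 53.0% of its summed CPM, and -0.89 ± 0.77 in the pool-and-split sets (adjusted p = 0.802). Cspg5 changed by -0.80 ± 0.55 (adjusted p = 0.781) and -0.91 ± 0.40 (adjusted p = 0.632), and Bcan by -0.12 ± 0.28 (95% interval -0.67 to 0.43) and 0.49 ± 0.37 (-0.23 to 1.20).

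Spread between 10-cell libraries was compared with that between pool-and-split libraries, whose spread is technical, to ask whether cells differed from each other. The scale was the absolute deviation of log2(CPM + 1) from the median of a library's set, tested with limma for genes found in at least 50% of libraries, which left out Acan, Tnc and Hapln1. None of 7 members was called at 12 dpi (0.0254% of all genes) or at 90 dpi (0.621%). At 12 dpi 2 of them, Bcan and Vcan, had an unadjusted p under 0.05, in opposite directions. Bcan deviated by 0.58 ± 0.27 more in 10-cell libraries (unadjusted p = 0.0339, adjusted p = 0.488), its SD of log2(CPM + 1) being 2.00 over 56 10-cell and 1.34 over 40 pool-and-split libraries, and Vcan by 1.04 ± 0.39 less, written as -1.04 ± 0.39 (unadjusted p = 0.00859, adjusted p = 0.407). Vcan had no count in 34 of the 56 10-cell libraries at 12 dpi (median 0 CPM) and in 13 of the 40 pool-and-split libraries (median 4.38 CPM). Deviations are small where most libraries of a set are at 0, and the part of this in Vcan's lower spread was not tested. At 90 dpi Bcan's difference was 0.03 ± 0.18 (95% interval -0.33 to 0.39) and none had an unadjusted p under 0.05. Libraries of a set share their source, so these tests compare these libraries only.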

How the data were processed

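Expected counts per gene, as RSEM gives them, were deposited by the authors for 240 libraries of laser-captured mouse cells. Bowtie2, RSEM and GRCm38 are named per the submitters' processing notes, and versions and strand setting are not given in the sources used here. The 92 spike-ins were left out. The estimated counts were summed per animal (bulk, 37 animals) or per set of one kind, age, sex and label number (small libraries), then rounded. Bulk comparisons used edgeR 4.0.16 (quasi-likelihood F test, TMM scaling, filterByExpr with a minimum count of 10, sex as covariate) in 1 fit of all animals, with limma 3.58.1 for the spread of small libraries and DESeq2 1.42.0 (R 4.3.3) as an alternative. Standard errors of log2 changes were the change divided by the square root of F, and their 95% intervals are normal. Such intervals are narrower than the F test implies, above all for the sets of small libraries. The procedure was tested on simulated data.

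The labels do not say that numbers pair the sets, and deviations of same-numbered sets did not correlate (r from -0.0393 to 0.0184). No source says that animals of a group came from separate litters or days, so p-values set a difference against the spread between these animals only. In the main bulk fit that spread was estimated over all 37 animals, tumours included, also for comparisons without tumours. Members and gene lists were chosen with earlier results of these data known. Genes named beside the members were the link protein neighbours, Nf1, Trp53, Pdgfra, Olig2, Sox10, the 2 largest called rises and falls of each list and the 2 genes most correlated with each member. Alternatives were other scaling, filters, covariates, tools, library choice and each animal or set left out. Leaving out WT 21167 and CKO 20647 together was chosen after seeing the data. Promoters came from RefSeq (GRCm38.p6), with entries for 9 of the 10 genes. The precision of a level follows from depth: 3 counts in the shallowest animal are 32.0 CPM.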

Additional observations from a re-analysis of the deposited data

Results flagged for a closer look

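Samples far from the rest of their group, judged on the log scale, were found in 6 of 100 groups examined, and chance alone gives about 1 in 20. Tnc gave 3 of them: 0 CPM in WT 21167 at 90 dpi, where the library was too shallow to show it, 105 CPM in CKO 20647 at 90 dpi, whose 2 libraries held 207 CPM and no count, and 0.513 CPM in male set 2 of the 10-cell libraries at 12 dpi, the highest of 4. Cspg5 stood at 358 CPM in WT 22064 at 150 dpi, the highest of 6. Cspg4 stood at 48.5 CPM in male set 1 of the 10-cell libraries at 12 dpi and Ptprz1 at 22.3 CPM in male set 2 of the pool-and-split libraries at 90 dpi, each the lowest of 4.

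The difference between mutant and WT animals was not the same at 90 and at 150 dpi for 6 genes, by a test of that change with edgeR. Of all genes tested, 14.2% were called higher and 15.8% lower. The difference grew by 1.73 on the log2 scale for Ncan, 1.52 for Bcan, 1.97 for Vcan, 3.50 for Acan, 1.02 for Cspg4 and 1.05 for Ptprz1. The call of Acan was lost without tumour 16713 (1.55, adjusted p = 0.106), and that of Cspg4 (adjusted p = 0.0434) in several alternatives.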

How the results depend on the processing

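The number of members called stayed within 1.5 times of its value in all comparisons and alternatives run, with 1 exception. In WT animals between 12 and 90 dpi a fit of the compared groups alone called 1 member, Hapln1, in place of 0. With each animal left out in turn, 7 to 9 members were called against WT, 7 to 9 against CKO and 5 to 7 in the change of the genotype difference from 90 to 150 dpi. The replicate block of sex and number gave 0 called members in both kinds of set, as without it. The sign of Tnr, never called, turned against WT with RLE scaling (0.10), a mean of at least 10 CPM (0.0484) and DESeq2 (0.10), and ran from -0.27 to 0.14 with each animal left out. Against CKO it turned with RLE scaling (0.0253) and DESeq2 (0.0253) and ran from -0.36 to 0.0544, and in the genotype change with RLE scaling (0.0903), the 10 CPM filter (0.0549) and DESeq2 (0.0901), running from -0.28 to 0.14. Hapln1 in the genotype change ran from -0.0415 to 0.80. Tnc between CKO and WT at 90 dpi (1.18, not called) turned to -0.385 without WT 21167 and CKO 20647 and ran from -0.344 to 1.38 with each animal left out. The cause was not tested. Counts over all genes moved further: DESeq2 called 274 genes in the 10-cell sets and 523 in the pool-and-split sets in place of 0, and each library taken as a replicate 251 and 239. Fits of the compared groups alone called 92 genes between CKO and WT at 12 dpi in place of 3 and 295 in WT between 12 and 90 dpi in place of 1, where DESeq2 called 13 and 9. DESeq2 called 14 genes at 90 dpi in place of 8, 20 in WT between 90 and 150 dpi in place of 3, 2 in CKO over time and 6 in the genotype change from 12 to 90 dpi in place of 0. The 10 CPM filter called 1 and 4 genes between CKO and WT at 12 and 90 dpi. Deviations from the mean gave 298 and 668 genes of unequal spread in place of 2 and 60, and at 12 dpi a pseudocount of 0.1 gave 11, one of 5 gave 0 and detection in 90% of libraries gave 6. Of all genes called, the share higher in tumours was 52.6% against WT and 62.1% with RLE scaling, and 53.8% and 63.5% against CKO. Depth limits Acan, Tnc and Hapln1 in WT 21167, where they had 3, 0 and 2 counts. These genes were also missing from many small libraries, and the reason for that was not tested.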

Other observations

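Heparan sulfate proteoglycans carry a related sugar chain. Of 12 genes, 9 rose and 1 fell against WT at 150 dpi (median log2 change 1.29, beside 0.06 over all genes tested, of which 24.3% rose and 21.9% fell), and 11 rose and 1 fell against CKO at 90 dpi (median 1.05, beside 0.12, with 26.4% and 22.6% of all genes). Hspg2, which encodes perlecan of basement membranes, stood at 149 ± 227 CPM (SD, n = 7) in tumours and 8.22 ± 4.30 CPM (n = 6) in WT, and rose by 3.90 ± 0.63 on the log2 scale (adjusted p = 3.1e-06) without overlap, or by 2.97 without tumour 16713 (adjusted p = 3.1e-06). Sdc1, a syndecan of the cell surface, rose by 3.53 ± 0.56 (adjusted p = 2.8e-06). Gpc5, a glypican anchored in the membrane, fell by 2.04 ± 0.33 against WT (adjusted p = 4.2e-06) and by 1.83 ± 0.33 against CKO (adjusted p = 2.1e-05).

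Of 4 tested genes for other tenascins and testicans, 1 rose and 3 fell against WT (24.3% and 21.9% of all genes), and 3 fell against CKO (22.6% of all genes). Spock3, a testican, fell by 3.96 ± 0.56 against WT (adjusted p = 3.1e-07), from 431 ± 381 CPM to 28.6 ± 32.9 CPM, and Spock1 by 2.05 ± 0.35 (adjusted p = 8.3e-06). Tnxb, another tenascin, rose by 2.16 ± 0.89 (adjusted p = 0.0453) and by 1.04 without tumour 16713 (adjusted p = 0.285). The summed neuron markers were 217 to 1470 CPM in the same tumours and 6760 to 10100 CPM in WT, and their part in these falls was not tested.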
